A study of Drosophila melanogaster with 24 samples.

Results

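The genes described here encode 76 cuticle proteins of Drosophila melanogaster, measured by 87 of the 23808 probes of a two-colour spotted array. The rule for membership uses gene names: it takes every probe with 1 gene symbol in the platform annotation that starts with Cpr and a digit (leaving out Cpr65Ax2), with Ccp84A or with Vajk, or that is Acp65Aa. The set holds 72 probes for 65 Cpr genes, 9 probes for 6 Ccp84A genes, 5 probes for 4 Vajk genes and 1 probe for Acp65Aa, out of 13455 probes and 11663 genes with a single symbol. All 87 symbols are unchanged in the RefSeq gene table of assembly Release 6 plus ISO1 MT, which was used only for names and for the order of genes along the chromosomes.

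The insect cuticle is a layered shell of chitin fibres bound in a matrix of proteins, secreted by the epidermis and shed at each moult. Cpr, Ccp84A and Acp65Aa proteins share a chitin-binding stretch, the Rebers and Riddiford consensus, and the part of the gene name after Cpr or Ccp is the cytological region of the gene. Vajk proteins form a small separate family of cuticle proteins. A fly makes the cuticle of the first larva late in embryogenesis, renews it at the larval moults, forms a pupal cuticle at the start of metamorphosis and then an adult cuticle beneath it, each under pulses of the steroid hormone ecdysone. For most single Cpr genes no role beyond that of a cuticle component is stated here.

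Animals of 8 stages were compared: embryos of 4-8 h, 8-12 h and 12-16 h after egg laying, larvae of pooled ages, hand-picked pupae of the stages called pupal 1, pupal 2 and pupal 3, and young adult flies collected as males and females. Each array carried total RNA of 1 stage in one dye and total RNA of 0-4 h embryos, the common reference, in the other. Each stage had 3 arrays that gave ratios, except pupal 1 with 2, since the file of its array c holds signals and not ratios and was not used. The labels define the pupal stages no further, name no strain, and do not say which arrays share animals, so p-values here reflect array-to-array spread alone, possibly technical.

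A value below is the log2 ratio of a stage to 0-4 h embryos after each array was centred on its median, so that 0 stands for the middle of all probes. A coefficient is the stage's value fitted by limma over all 23 ratio arrays with a dye term, given ± its standard error. A probe is called higher or lower where the p-value, adjusted by Benjamini-Hochberg over all 23808 probes, is under 0.05. Because the ratio is taken against each probe's own reference level, it compares stages for 1 probe and ranks no gene's RNA amount against another's. In RNA extracted in bulk, fewer cells that make a transcript cannot be told apart from less transcript per cell.

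The stage labels were set beside fixed marker lists, all in the same ratio to 0-4 h embryos. The median of 3 probes for the maternal and early embryo genes dhd, osk and smg lay at -6.58 to -2.85 on every array. Probes for the larval glue genes (Sgs, 9 probes) had array medians of 2.96 to 3.57 in larvae and 4.42 to 5.77 in pupal 1, and those for the larval fat body (Lsp2 and Fbp1, 3 probes) of 6.23 to 7.58 in larvae, 7.40 to 7.66 in pupal 1, 6.75 to 7.65 in pupal 2, 4.31 to 4.95 in pupal 3 and 4.17 to 5.75 in young adults. Flight muscle probes (Act88F, TpnC4 and fln) had array medians of 0.75 to 1.45 in pupal 1, 4.34 to 5.92 in pupal 2, 5.74 to 6.59 in pupal 3 and 2.77 to 4.44 in young adults. The 4 probes for the yolk protein genes Yp1, Yp2 and Yp3, made by adult females, had 3.64 to 5.53 in young adults but also 3.11 to 3.77 in pupal 2, against -0.03 to 0.22 in pupal 3. The part of adult RNA in the pupal 2 results was not tested. The interquartile range of values was 0.83 to 1.00 on 4 arrays (embryo 4-8 h a and b, embryo 8-12 h a and larvae a) and 1.05 to 2.20 on the other arrays. Arrays a and b of pupal 2 correlated at 0.904 over all probes and those of pupal 3 at 0.892, above every other pair within a stage; whether they share an RNA sample is not stated.

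Of the 87 cuticle probes, 55 differed among the 8 stages (moderated F-test), for 53 of the 76 genes, where 21.0% of all probes did. Every Vajk probe and Acp65Aa passed, as did 4 of 9 Ccp84A probes and 45 of 72 Cpr probes. The difference between a probe's highest and lowest stage coefficient had a median of 3.44 and ran from 0.78 (Cpr50Ca, probe 28113) to 8.15 (Acp65Aa). Of the 55 probes that passed, 25 had their highest coefficient in pupal 2 (45.5%, against 5.23% of all probes that passed), 17 in 12-16 h embryos (30.9%, against 35.2%), 7 in pupal 1 (12.7%, against 6.82%), 4 in larvae (7.27%, against 5.45%) and 2 in young adults (3.64%, against 22.3%). None had it in 4-8 h or 8-12 h embryos or in pupal 3.

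**Figure D1:**
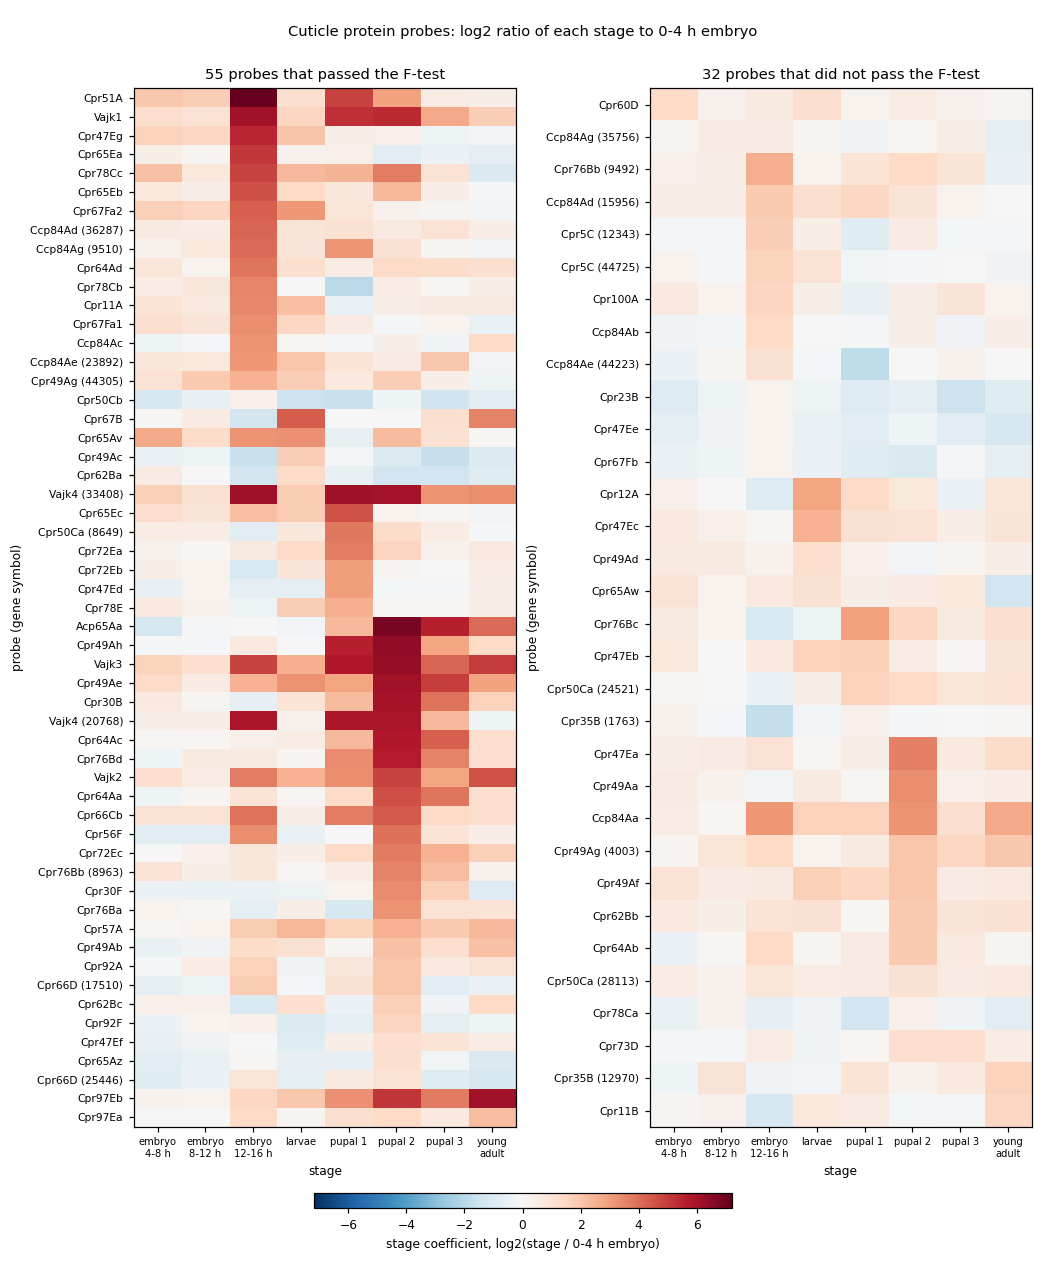
Fitted log2 ratio of each stage to 0-4 h embryo (colour) for the 55 cuticle probes that passed the F-test (left) and the 32 that did not (right), in rows ordered by the stage of the highest value; numbers in brackets are probe numbers where a gene has several. In the left panel 17 probes peak in 12-16 h embryos and 25 in pupal 2, and most cells of 4-8 h and 8-12 h embryos are pale. Arrays are median-centred. Without centring 27 cuticle probes were called lower at 12-16 h and 21 in pupal 2, where 13871 and 16339 of all 23808 probes were.

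Calls of a higher ratio were most frequent in pupal 2 and in 12-16 h embryos. In pupal 2, 46 of 87 probes (52.9%) were higher than in 0-4 h embryos and 1 was lower, where 9.30% and 16.0% of all probes were. Without centring 22 were higher and 21 lower, where 264 and 16339 of all 23808 probes were. In 12-16 h embryos 40 were higher and 3 lower (16.8% and 12.5% of all probes). The deposited values without centring gave 22 higher and 27 lower, where 647 and 13871 of all probes were. Larvae had 29 higher and 2 lower (8.76% and 14.7% of all probes), or 4 and 9 without centring (208 and 7519 of all probes). Pupal 1 also had 29 and 2 (7.58% and 16.2%), or 11 and 11 without centring (164 and 8211 of all probes). With either of its arrays left out, which leaves 1, fewer were called. Pupal 3 had 23 higher and 5 lower (9.53% and 19.5%), or 14 and 4 without centring (409 and 3858 of all probes). Young adults had 24 and 5 (15.2% and 19.2%), or 10 and 4 without centring (1288 and 4416 of all probes). Without array c 19 calls were made in all.

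Counts in early embryos depended on the normalization. In 4-8 h embryos 5 probes were higher and 1 lower (1.49% and 5.94% of all probes), and in 8-12 h embryos 2 were higher and 0 lower (3.83% and 5.71%), or 0 and 1 without centring (56 and 3028 of all probes). After quantile normalization 19 were higher and 4 lower at 4-8 h. Over all 23808 probes these counts were then 1820 and 2697, against 355 and 1414 with centring alone. At 8-12 h 8 were higher after quantile normalization (1848 of all probes). With close duplicate spots only (42 of 10328 probes) 6 were higher and 4 lower at 4-8 h, where 397 and 2086 of the 10328 were. The median of the 87 coefficients was 0.36 and 0.28 at these stages, 0.99 at 12-16 h, 0.67 in larvae and in pupal 1, 1.30 in pupal 2, 0.57 in pupal 3 and 0.49 in young adults, while that of all probes was between 0.0036 and 0.08 at every stage. The median of all probes was -1.79 to 0.73 before centring, depending on the stage (-1.79 in pupal 2, -1.72 at 12-16 h, -1.08 in larvae and 0.73 at 4-8 h), so directions given here are relative to the middle of each array.

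**Figure D2:**
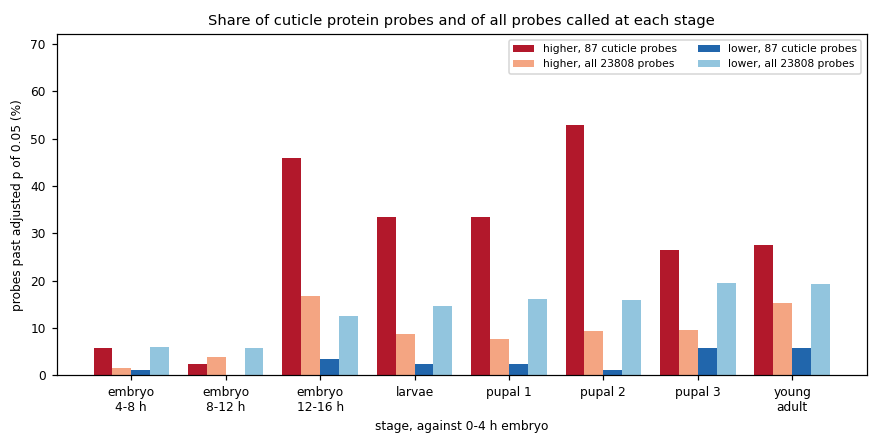
Share of probes called higher (reds) and lower (blues) than in 0-4 h embryo at each stage, for the 87 cuticle probes and for all 23808 probes, from median-centred arrays. The cuticle share called higher is 46.0% at 12-16 h and 52.9% in pupal 2, against 16.8% and 9.30% of all probes. Without centring the 12-16 h counts were 22 higher and 27 lower (647 and 13871 of all probes). Those in larvae were 4 and 9 (208 and 7519 of all probes).

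Before 12 h the 8 calls named next were made in centred values, where quantile normalization gave 23 at 4-8 h and 8 at 8-12 h. Cpr65Av had values of 3.45, 2.96 and 2.03 on the 3 arrays of 4-8 h embryos, a coefficient of 2.75 ± 0.43 (adjusted p = 0.000542). Cpr51A had 1.89, 2.07 and 1.96 at 4-8 h and 1.98, 1.66 and 1.76 at 8-12 h, so that its arrays lay close together at both stages. The remaining calls at 4-8 h were Cpr78Cc (2.11), Vajk4 probe 33408 (1.70) and Vajk3 (1.59), which were higher, and Cpr50Cb (-1.14), which was lower. At 8-12 h the other call was Cpr49Ag probe 44305 (1.89 ± 0.47). Of these calls, that of Cpr65Av at 4-8 h was the only one that held when any 1 array of its stage was left out. Without the 4 arrays of narrow spread 1 cuticle probe was called at 8-12 h, where 601 of all probes were higher and 650 lower. The 4-8 h stage was then left with array c alone, so its calls are not counted. In the fit of all arrays 10 cuticle probes had an unadjusted p under 0.05 at 8-12 h and 23 at 4-8 h. Neither was counted over all probes, so they have no share to be read against.

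Between 4-8 h and 8-12 h no cuticle probe was called in limma, higher or lower (0.00840% and 0.00420% of all probes were). An unadjusted p under 0.05 was found for 1 cuticle probe and was not counted over all probes. Between 8-12 h and 12-16 h, 22 were called, all of them higher at 12-16 h (3.98% of all probes were higher and 1.13% lower). They were 13 Cpr probes, 4 Ccp84A probes and all 5 Vajk probes. Without centring 8 of the 87 were called (53 higher and 52 lower of all probes), and after quantile normalization 12 (277 and 112).

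Among the cuticle probes, Cpr51A reached the largest ratio of 12-16 h embryos. Its values were 5.997, 8.73 and 6.68 on the 3 arrays of 12-16 h embryos, against 1.98, 1.66 and 1.76 at 8-12 h, and the groups did not overlap. Its coefficient at 12-16 h was 7.16 ± 0.43 (adjusted p = 2.31e-09), a ratio of 143 to 0-4 h embryos, and it exceeded that of 8-12 h by 5.39 ± 0.62 (adjusted p = 4.04e-05). The gene was low again in larvae, with 1.02, 2.40 and 0.03, and high again in pupal 1, with 4.76 and 5.14.

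The neighbours Cpr65Ea and Cpr65Eb were high at 12-16 h, and Cpr65Ea at no other stage. Cpr65Ea had 4.55, 5.51 and 5.22 at 12-16 h, against 0.08, -0.09 and 0.68 at 8-12 h and 0.19, 0.91 and -0.17 in larvae. Its coefficient was 5.10 ± 0.30 at 12-16 h (adjusted p = 1.94e-09) and lay between -0.80 and 0.43 at the other 7 stages, none of which was called. Cpr65Eb had 5.37, 4.23 and 4.31 at 12-16 h, against 0.22, 0.47 and 0.71 at 8-12 h, and a smaller ratio in pupal 2 with 1.60, 2.42 and 3.12.

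Cpr47Eg, Cpr78Cc and Cpr67Fa2 were further genes with their highest ratio at 12-16 h. Cpr47Eg had 4.94, 5.88 and 5.98 at 12-16 h, against -0.06, 1.58 and 2.63 at 8-12 h, a coefficient of 5.50 ± 0.56 (adjusted p = 3.08e-07). Cpr78Cc had 6.84, 3.72 and 3.86, with array a well above the others, against 1.38, 0.08 and 0.95 at 8-12 h. Cpr67Fa2 had 3.70, 4.72 and 4.59, against 0.88, 2.61 and 1.03 at 8-12 h, and its neighbour Cpr67Fa1 3.52, 2.29 and 4.44, against 0.99, 1.56 and 0.05. Ratios below the reference at 12-16 h were those of Cpr35B probe 1763 (-1.73 ± 0.50), Cpr49Ac (-1.62 ± 0.46) and Cpr62Ba (-1.31 ± 0.48), and each lost its call when 1 of 1 or 2 arrays was left out (array c for all 3, b for Cpr49Ac and a for Cpr62Ba).

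In larvae, 20 probes fell and 8 rose relative to 12-16 h embryos (7.60% and 2.63% of all probes). The largest falls were of genes that were high at 12-16 h: Cpr51A fell by 5.98 ± 0.61 on the log2 scale, Vajk4 (probe 20768) by 5.56 ± 0.53 and Cpr65Ea by 4.78 ± 0.42 (adjusted p = 7.05e-06, 3.58e-06 and 1.51e-06). The 8 that rose were Cpr67B (5.71), Cpr12A (3.76), Cpr49Ac (3.41), Cpr62Ba (2.69), Cpr47Ec (2.39), Cpr62Bc (2.30), Cpr78E (2.15) and Cpr50Ca probe 8649 (1.64). Without centring 9 probes were called, 3 higher and 6 lower (177 and 141 of all probes). After quantile normalization 16 were called (312 of all probes were higher and 555 lower). Cpr62Ba lost its call without larval array b, and Cpr62Bc without any 1 of 4 arrays.

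Cpr67B had its highest ratio in larvae, with a second one in young adults. Its values were 1.89, 5.38 and 6.14 in larvae, against -3.34, -0.19 and -0.17 at 12-16 h, and array a was the lowest of the larval arrays. The coefficient in larvae was 4.37 ± 0.61 (adjusted p = 2.81e-05). In young adults Cpr67B had 2.95, 3.87 and 4.27 (3.60 ± 0.61), while in pupal 1 and pupal 2 it lay at 0.02 and 0.01. Cpr49Ac had 0.90, 2.68 and 1.96 in larvae, against -0.43, -2.11 and -2.14 at 12-16 h, and larvae were its only stage above the reference.

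Cpr65Av and Cpr67Fa2 were high both in larvae and at 12-16 h, and the larval ratio of Cpr12A was carried by 1 array. Cpr65Av had 3.29, 4.86 and 1.53 in larvae, against 3.13, 2.73 and 3.70 at 12-16 h, and these overlapped. Cpr67Fa2 had 3.98, 3.21 and 2.27 in larvae, against 3.70, 4.72 and 4.59 at 12-16 h. Cpr12A had 1.16, 1.26 and 6.34, so that array c stood far above the other larval arrays (2.82 ± 0.61, adjusted p = 0.0021), and the gene did not pass the F-test. In array a of larvae, 1 of the 4 arrays of narrow spread, the standard deviation over the 87 probes was 1.08, against 1.60 and 1.46 on arrays b and c, and without array b 19 of the 87 were called.

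At the start of metamorphosis, 8 probes rose and 2 fell in pupal 1 relative to larvae (0.458% and 0.538% of all probes). Cpr49Ah changed most. It had 5.32 and 5.00 on the 2 arrays of pupal 1, against -0.59, 0.61 and 0.56 in larvae, a difference of 5.53 ± 0.63 (adjusted p = 0.000251). The others that rose were both Vajk4 probes (5.49 and 4.30), Cpr47Ed (3.70), Cpr51A (3.69), Vajk1 (3.69), Vajk3 (3.19) and Cpr50Ca probe 8649 (2.98). Cpr67B fell by 4.35 ± 1.00 and Cpr65Av by 3.82 ± 0.71. Without centring 2 probes were called, both higher (7 of all probes were higher and 11 lower). Pupal 1 rests on 2 arrays of 1 dye orientation: without its array a, 5 probes were called in place of 10, and Cpr51A and Cpr65Av were among those lost, while Cpr67B (called lower) lost its call without any 1 of 4 arrays.

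Several genes had their highest ratio in pupal 1. Cpr65Ec had 4.11 and 4.37 in pupal 1, against 2.41, 2.18 and 1.15 in larvae, and it was at -0.17, 0.37 and 0.95 in pupal 2. Cpr72Ea had 3.71 and 3.64 in pupal 1 (3.68 ± 0.49), against 1.64, 1.27 and 1.24 in larvae, and it was still called in pupal 2 (1.55 ± 0.38). Cpr72Eb had 3.19 and 3.00 (2.99 ± 0.60), against -0.01, 2.96 and -0.32 in larvae, where array b alone reached the pupal level. Cpr47Ed had 1.17 and 4.41 in pupal 1, 2 arrays that differ by more than 3 log2 units, against -0.34, -1.01 and -0.61 in larvae. Between the stages, Cpr65Ec, Cpr47Ed and Cpr50Ca probe 8649 fell by 4.29 ± 0.89, 3.13 ± 0.71 and 2.49 ± 0.56 in pupal 2 relative to pupal 1 (adjusted p = 0.031, 0.0495 and 0.0471), and each of these calls was lost when 1 array was left out.

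**Figure D3:**
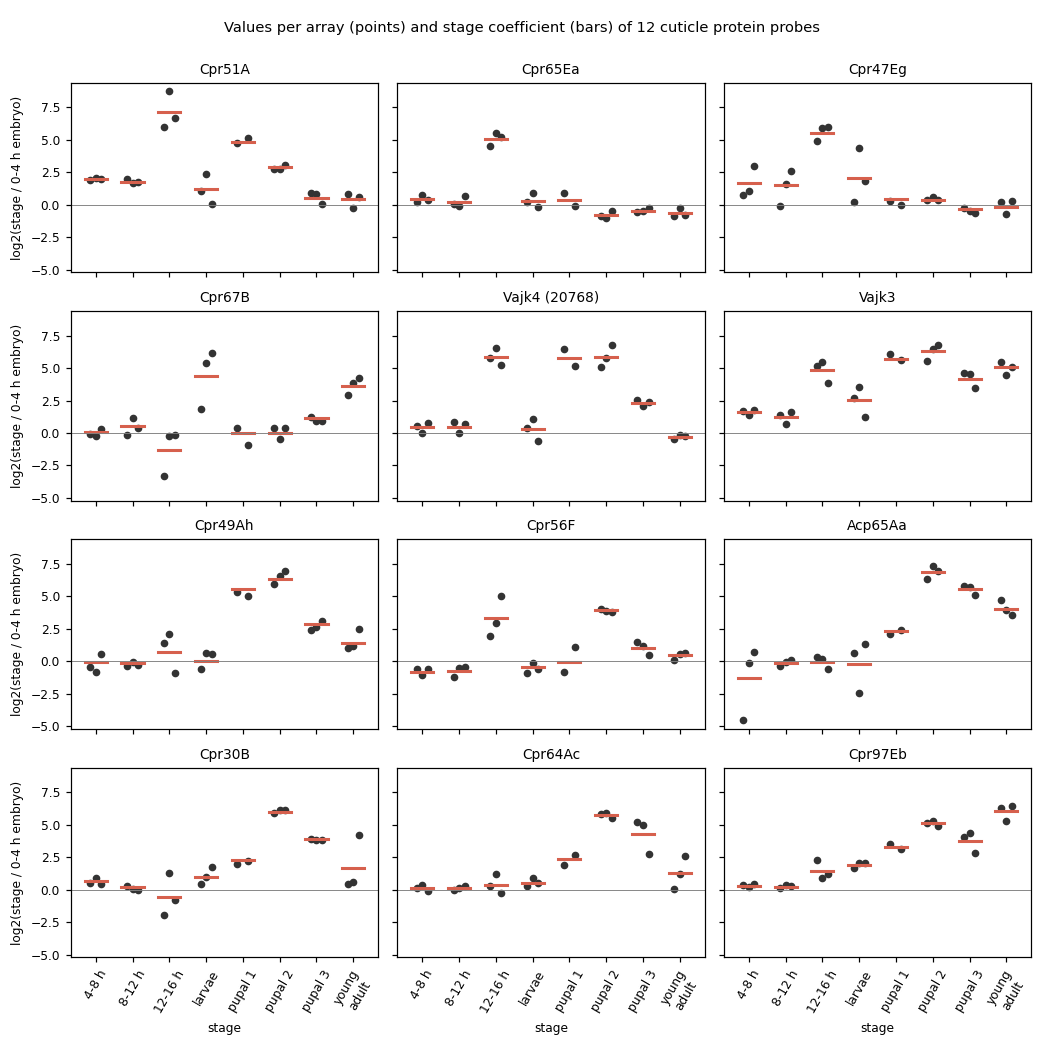
Log2 ratio to 0-4 h embryo (vertical axis) on each array (points) and the fitted stage coefficient (bars) for 12 cuticle probes across the 8 stages (horizontal axis). Cpr65Ea is high at 12-16 h alone, Cpr67B in larvae and young adults, Vajk4 at 12-16 h, pupal 1 and pupal 2, and Acp65Aa from pupal 2 to young adults.

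Pupal 2 held the largest ratios of the pupal stages. Acp65Aa, whose protein is known from adult cuticle, had 6.32, 7.37 and 6.96 in pupal 2, against 2.14 and 2.42 in pupal 1, and the groups did not overlap. Its coefficient in pupal 2 was 6.86 ± 0.71 (adjusted p = 9.4e-07), a ratio of 116 to 0-4 h embryos. It stayed high with 5.83, 5.74 and 5.08 in pupal 3 and 4.76, 3.95 and 3.54 in young adults. Before metamorphosis its arrays were scattered around 0, with 0.65, -2.46 and 1.30 in larvae and -4.56, -0.11 and 0.73 at 4-8 h, where array a alone was far below. The gene lies near Cpr65Az, with 2 coding genes between them, whose coefficients ran between -1.04 in young adults and 1.15 in pupal 2.

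Cpr49Ah, Cpr49Ae, Cpr30B and Cpr64Ac were near or above 6 log2 units in pupal 2. Cpr49Ah had 5.95, 6.58 and 6.99 in pupal 2, against 5.32 and 5.00 in pupal 1, and its coefficients of 6.37 ± 0.38 and 5.58 ± 0.49 did not pass the test between the stages (adjusted p = 0.734). Cpr49Ae had 5.67, 5.61 and 6.64 in pupal 2, against 1.90 and 4.10 in pupal 1. It differed from most members in that it was called higher at 6 stages, with 2.80, 4.69 and 2.10 in larvae and 5.63, 4.74 and 4.83 in pupal 3.

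Cpr30B had 5.87, 6.11 and 6.13 in pupal 2, against 1.95 and 2.19 in pupal 1, and its 3 pupal 2 arrays lay within 0.3 of each other. Cpr64Ac had 5.84, 5.94 and 5.51 in pupal 2, against 1.89 and 2.64 in pupal 1, and its neighbour Cpr64Aa 4.47, 5.05 and 4.38, against 1.25 and 1.51. The 5 probes called higher in pupal 2 than in pupal 1 (0.449% of all probes were, and 0.189% were lower) were Cpr76Ba (4.40 ± 0.87), Cpr56F (3.95 ± 0.71), Cpr64Ac (3.41 ± 0.74), Cpr64Aa (3.28 ± 0.45) and Cpr30F (3.15 ± 0.58), and 3 were lower. Without centring none of these 8 calls was made, where 3 of all probes were higher and 11 lower. When the close pairs of arrays (a and b in pupal 2, a and b in pupal 3) were averaged 1 cuticle probe was called. Of all probes 11 were then higher and 10 lower. Cpr76Ba rests on a low array a of pupal 1, at -3.31, where array b was at 1.03.

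Pupal 2 and 12-16 h embryos were compared directly. Relative to 12-16 h embryos, 16 of 87 probes were higher in pupal 2 and 13 were lower (2.24% and 5.30% of all probes). Those higher in pupal 2 were led by Acp65Aa (6.92 ± 0.99), Cpr30B (6.53 ± 0.77), Cpr49Ah (5.64 ± 0.54), Cpr64Ac (5.36 ± 0.63) and Cpr76Bd (4.99 ± 0.90), with adjusted p from 2.33e-06 to 0.00165. Cpr30B shows the contrast on single arrays, with 5.87, 6.11 and 6.13 in pupal 2, against -1.94, 1.25 and -0.79 at 12-16 h. Lower in pupal 2 were Cpr65Ea, which fell by 5.90 ± 0.42, Cpr47Eg, which fell by 5.16 ± 0.78, and Cpr51A, which fell by 4.28 ± 0.61. Cpr47Eg had 0.35, 0.63 and 0.34 in pupal 2, against 4.94, 5.88 and 5.98 at 12-16 h, which do not come near each other. All 4 Ccp84A probes called here were lower, and no Vajk probe was called. Without centring 16 were called, 10 higher and 6 lower (117 and 196 of all probes).

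Some genes were high at both stages. Cpr56F had 4.01, 3.89 and 3.79 in pupal 2, against 1.99, 2.92 and 5.07 at 12-16 h, and was at or below 1.01 in its coefficient at the other 6 stages. Cpr66Cb had 4.26, 4.79 and 4.56 in pupal 2, against 7.34, 3.08 and 1.58 at 12-16 h, where array a was far above the others. Ccp84Aa had 3.03, 3.06 and 3.24 in pupal 2, against 0.22, 4.37 and 4.39 at 12-16 h. None of these 3 genes passed the test between the stages.

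**Figure D4:**
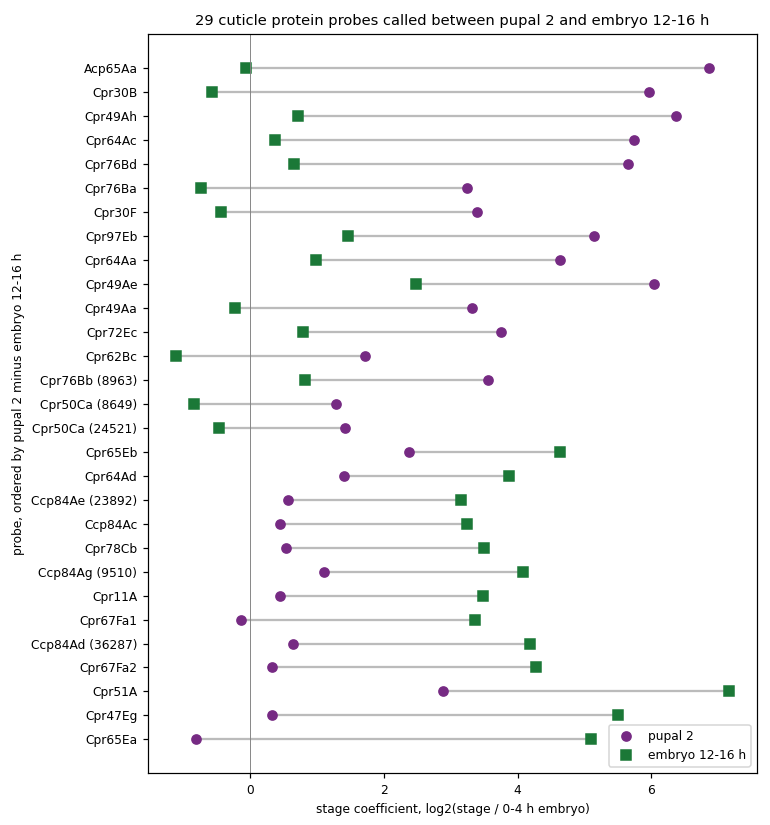
Fitted log2 ratios to 0-4 h embryo in pupal 2 (circles) and in 12-16 h embryos (squares) for the 29 cuticle probes called between these stages, ordered by the difference. The upper 16 are higher in pupal 2, from Acp65Aa (6.92) to Cpr50Ca probe 24521 (1.88), and the lower 13 are lower, down to Cpr65Ea (-5.90).

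Towards the adult most pupal 2 ratios were lower again in centred values: the median of pupal 3 minus pupal 2 over the 87 probes was -0.75, against -0.06 over all probes. Before centring the median of all probes was -1.79 in pupal 2 and -0.54 in pupal 3. The sign of this difference therefore depends on centring, and it is relative to the middle of each array. In pupal 3, 5 probes fell and 0 rose relative to pupal 2 (0.311% and 0.0294% of all probes). Of the 87, 32 had an unadjusted p under 0.05. This was not counted over all probes, so it has no share to be read against. The 5 called were both Vajk4 probes, Cpr49Ah, Cpr56F and Cpr66D probe 17510. Cpr49Ah had 2.40, 2.63 and 3.13 in pupal 3, against 5.95, 6.58 and 6.99 in pupal 2, and fell by 3.50 ± 0.54 (adjusted p = 0.00537). Without pupal 2 array c none of the 5 calls was made, without any other 1 array 2 or 3 were, and none was made without centring or with arrays a and b of each of these stages averaged. Of all probes 7 were higher and 0 lower without centring, and 0 and 1 with averaged arrays.

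In young adults, 1 probe rose and 5 fell relative to pupal 3 (1.10% and 0.0882% of all probes). The gene that rose was Cpr97Eb, with 6.31, 5.28 and 6.47 in young adults, against 4.08, 4.36 and 2.84 in pupal 3, a difference of 2.28 ± 0.47 (adjusted p = 0.018). Its coefficient against 0-4 h embryos was 6.03 ± 0.33 in young adults, 5.14 ± 0.33 in pupal 2 and 3.30 ± 0.42 in pupal 1, and its neighbour Cpr97Ea also had its highest coefficient in young adults (2.22 ± 0.30). The 5 that fell were Cpr64Ac (-3.04), Cpr64Aa (-2.68), Cpr30F (-2.68), Vajk4 probe 20768 (-2.59) and Ccp84Ae probe 23892 (-2.12). Cpr64Aa had 1.16, 1.19 and 1.21 in young adults, against 4.32, 3.88 and 3.44 in pupal 3. The calls of Cpr97Eb, Cpr64Ac and Cpr30F were each lost without any 1 of 2 to 4 arrays, and without centring none of the 6 was made (12 of all probes were higher and 0 lower).

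The Vajk genes were high at several stages. All 5 probes were higher than in 0-4 h embryos at 12-16 h, in pupal 1, in pupal 2 and in pupal 3. Of all probes 16.8%, 7.58%, 9.30% and 9.53% were. Without centring every one of these Vajk calls was made except that of Vajk2 in pupal 1 (adjusted p = 0.0555). Of all 23808 probes 647, 164, 264 and 409 were then higher at these stages. Vajk3 had 5.19, 5.46 and 3.86 at 12-16 h, 2.69, 3.56 and 1.26 in larvae, 6.11 and 5.64 in pupal 1, 5.57, 6.51 and 6.79 in pupal 2, 4.59, 4.56 and 3.50 in pupal 3 and 5.44, 4.47 and 5.11 in young adults. It was called at every stage but 8-12 h. Vajk1 had 5.97, 6.57 and 5.14 at 12-16 h and 4.98, 4.32 and 6.39 in pupal 2, but 3.48, 0.11 and 1.31 in young adults, where array a alone was high and the call was lost without it (adjusted p = 0.159). Vajk2, the third of these neighbours, had the smallest ratio of the family at 12-16 h (3.70 ± 0.41) and 4.82, 4.04 and 4.58 in young adults.

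Vajk4 lies apart from the other Vajk genes and has a pair of probes. Probe 20768 had 5.81, 6.55 and 5.21 at 12-16 h, 6.46 and 5.20 in pupal 1 and 5.07, 5.78 and 6.75 in pupal 2, with 0.39, 1.07 and -0.58 in larvae between them. Probe 33408 had 5.83, 6.83 and 5.44, 6.46 and 6.22 and 5.31, 6.05 and 6.46 at the same stages and 2.05, 2.76 and 0.41 in larvae. The probes part in young adults, with -0.43, -0.19 and -0.26 for probe 20768 and 3.88, 2.51 and 3.45 for probe 33408, which do not overlap.

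The Ccp84A genes lie close together within the Antennapedia gene complex, and 7 of their 9 probes were higher at 12-16 h, where 16.8% of all probes were. Without centring 4 of 9 were (Ccp84Ac, Ccp84Ad probe 36287, Ccp84Ae probe 23892 and Ccp84Ag probe 9510), against 647 of all 23808 probes. Ccp84Ad probe 36287 had 3.65, 6.42 and 2.84 at 12-16 h, against 0.38, 0.67 and 0.12 at 8-12 h (4.18 ± 0.42 in its coefficient at 12-16 h, adjusted p = 3.32e-07). Ccp84Ag probe 9510 had 3.19, 4.80 and 4.25, against 0.34, 0.41 and 1.49 at 8-12 h, and a second high stage in pupal 1 with 2.47 and 3.95. Ccp84Ac had 4.14, 1.41 and 3.87, against -0.0049, -0.22 and 0.32 at 8-12 h. Ccp84Ae probe 23892 had 3.99, 2.36 and 2.87, against 0.68, 0.60 and 1.26 at 8-12 h, and was also called in larvae (1.97 ± 0.31) and in pupal 3 (1.94 ± 0.31). Ccp84Aa was called at 12-16 h (3.15 ± 0.68), in pupal 2 (3.26 ± 0.68) and in young adults (2.71 ± 0.68) with wide spread, the last call being lost without array c, and Ccp84Ab at 12-16 h alone (1.43 ± 0.37), a call lost without array b or c and of the opposite sign (-0.25) without centring. In larvae, pupal 1 and pupal 2, 1 of the 9 probes was called higher at each stage. That is near the shares of all probes called higher there (8.76%, 7.58% and 9.30%).

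Genes that lie together did not always share a stage of highest ratio. In region 65E, Cpr65Ea and Cpr65Eb were highest at 12-16 h (5.10 and 4.63) and Cpr65Ec in pupal 1 (4.56). In region 64A, Cpr64Ad was highest at 12-16 h with 2.97, 3.35 and 4.70, and Cpr64Aa, Cpr64Ab and Cpr64Ac in pupal 2 (4.64, 1.86 and 5.74). In region 72E, Cpr72Ea and Cpr72Eb were highest in pupal 1 and Cpr72Ec, known as a protein of the corneal lens of the eye, in pupal 2 with 3.75, 4.57 and 3.24, against 0.79 and 1.38 in pupal 1. The eye genes Arr1, Arr2 and trp, a marker list of 3 probes, had array medians of 2.19 to 2.61 in pupal 2, against 0.73 to 0.81 in pupal 1, and 1.27 to 2.75 in pupal 3 and 2.90 to 4.17 in young adults. Cpr72Ec had 2.49, 1.98 and 2.79 in pupal 3 and 1.05, 2.18 and 2.15 in young adults.

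Of the 7 genes in region 47E, 3 passed the F-test (21.0% of all probes did), each with another highest stage: Cpr47Eg at 12-16 h (5.50), Cpr47Ed in pupal 1 (2.98) and Cpr47Ef in pupal 2 (1.22). Of the 8 genes in region 49A, 5 passed. Cpr49Ab, Cpr49Ae and Cpr49Ah were highest in pupal 2 (2.14, 6.03 and 6.37), Cpr49Ac in larvae (1.79) and Cpr49Ag probe 44305 at 12-16 h (2.52). Of a pair of nearby genes, Cpr78Cb had 2.78, 4.38 and 3.28 at 12-16 h and -3.31 and -0.51 in pupal 1, and Cpr78Cc was called higher at 4-8 h, at 12-16 h, in larvae, in pupal 1 and in pupal 2 (the 4-8 h, larval and pupal 1 calls were lost without 1 array). In region 76B, Cpr76Ba, Cpr76Bb probe 8963 and Cpr76Bd were highest in pupal 2 (3.25, 3.56 and 5.65), and Cpr76Bc in pupal 1 (2.94) without passing the F-test.

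**Figure D5:**
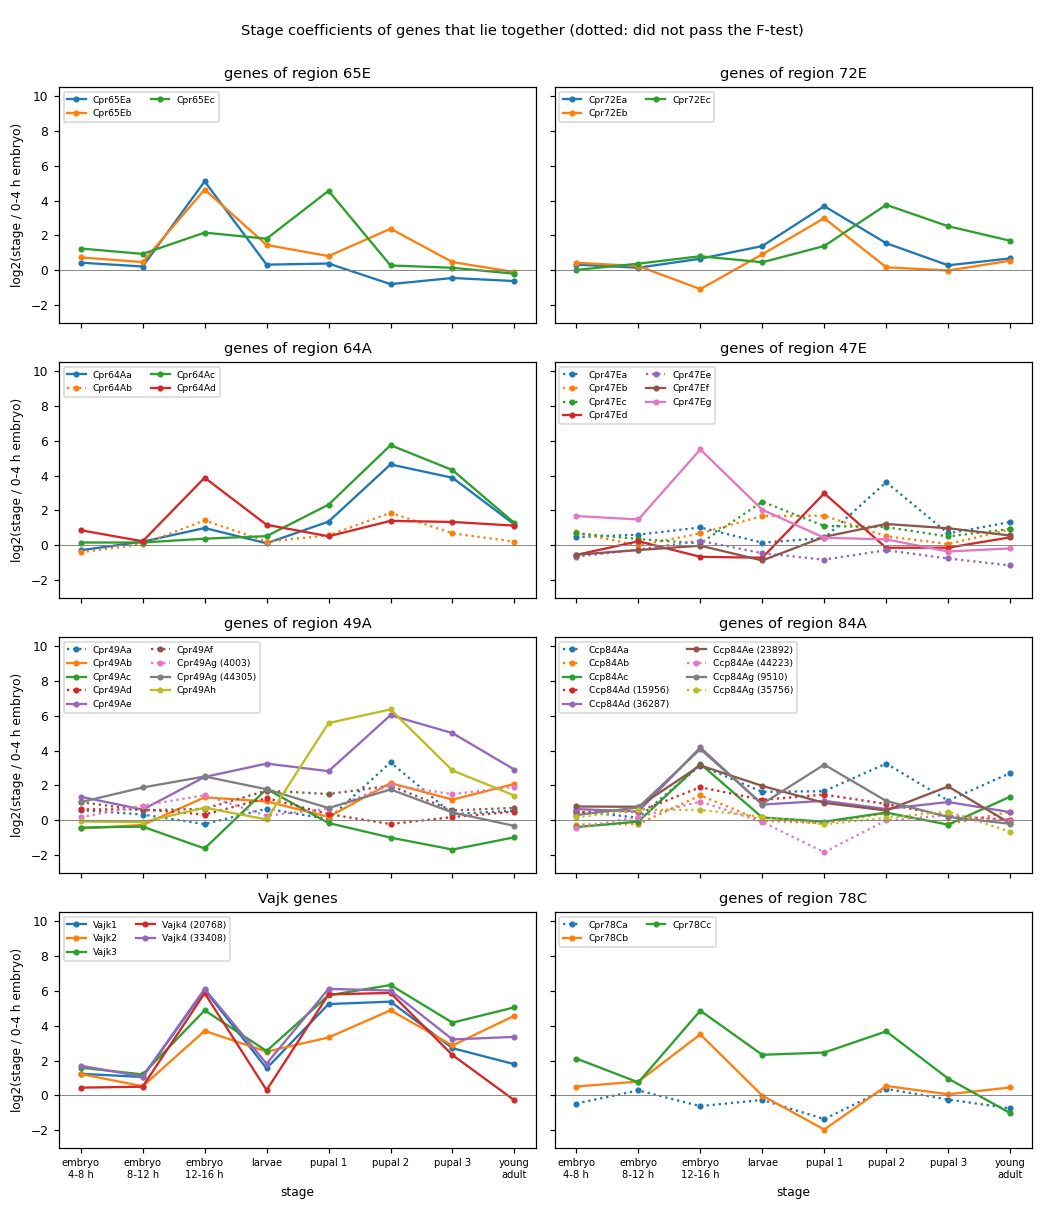
Fitted log2 ratio to 0-4 h embryo (vertical axis) by stage (horizontal axis) for cuticle genes of 7 cytological regions and for the Vajk genes, 1 line per probe, dotted where the probe did not pass the F-test. Lines of 1 region peak at different stages (Cpr65Ea at 12-16 h with 5.10 and Cpr65Ec in pupal 1 with 4.56), while every Vajk line is high at 12-16 h, in pupal 1 and in pupal 2.

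Probes of 1 gene did not always give the same profile, and 10 genes had more than 1 probe. Cpr66D, known as a protein of the corneal lens, had 1.77, 1.52 and 2.37 in pupal 2 and -0.10, 3.07 and 2.24 at 12-16 h on probe 17510, and 0.67, 0.28 and 1.80 and -0.38, 0.82 and 1.76 on probe 25446, so that both peaked at the same stages; without centring the coefficients of probe 25446 were below 0 at both (-0.72 and -0.82). Probes of Cpr5C also shared 12-16 h as their highest stage (1.77 and 1.61, the second being -0.07 without centring). For Ccp84Ag, in contrast, probe 35756 had 0.22, -0.50 and 1.69 at 12-16 h, where probe 9510 had 3.19, 4.80 and 4.25. Ccp84Ae probe 44223 had 0.84, 2.58 and -0.11, where probe 23892 had 3.99, 2.36 and 2.87. Of the 3 Cpr50Ca probes, probe 8649 had a coefficient of 3.79 ± 0.43 in pupal 1, probe 24521 of 1.68 ± 0.47 and probe 28113 of 0.57 ± 0.57. Cpr76Bb was highest in pupal 2 on probe 8963 (3.56) and at 12-16 h on probe 9492 (2.63), Cpr49Ag at 12-16 h on probe 44305 (2.52) and in pupal 2 on probe 4003 (2.02), and Cpr35B at 12-16 h was at -1.73 on probe 1763 and -0.24 on probe 12970. Values of such genes are therefore given per probe.

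Of the 87 probes, 11 were called lower than in 0-4 h embryos at 1 or more stages, all of them Cpr probes, where 31.2% of all probes were. Without centring 27 of the 87 were lower at 12-16 h alone and 21 in pupal 2, where 13871 and 16339 of all 23808 probes were. Cpr50Cb was the member called lower at most stages, with -0.41, -1.08 and -1.51 at 4-8 h, -0.16, -1.99 and -2.76 in larvae, -1.54 and -0.83 in pupal 1 and -0.88, -1.12 and -1.86 in pupal 3. Its dye term also passed the threshold, as it did for Cpr23B, Cpr47Ee, Cpr64Ad and Cpr65Az among the members and for 3632 of all probes, so that its arrays of different dye orientation differ. Cpr23B was lower in pupal 3 (-1.51 ± 0.30) and in young adults (-0.89 ± 0.30), and Cpr47Ee in young adults (-1.16 ± 0.29). Of these calls, those of Cpr50Cb in pupal 3 and of Cpr23B in pupal 3 were kept when any 1 array of the stage was left out.

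A group of 32 probes did not pass the F-test, and 23 of these were called at 1 or more stages. Their range over stages ran from 0.78 to 4.02 log2 units, against 1.97 for the narrowest probe that passed. The 9 probes with no call of any kind were those of Cpr100A, Cpr11B, Cpr60D, Cpr65Aw, Cpr67Fb and Cpr78Ca, Ccp84Ae probe 44223, Ccp84Ag probe 35756 and Cpr50Ca probe 28113. The others that did not pass the F-test were Ccp84Aa, Ccp84Ab, Ccp84Ad probe 15956, Cpr12A, Cpr23B, both Cpr35B probes, Cpr47Ea, Cpr47Eb, Cpr47Ec, Cpr47Ee, Cpr49Aa, Cpr49Ad, Cpr49Af, Cpr49Ag probe 4003, Cpr50Ca probe 24521, both Cpr5C probes, Cpr62Bb, Cpr64Ab, Cpr73D, Cpr76Bb probe 9492 and Cpr76Bc. Some had wide but uneven ranges: Cpr76Bc ran from -1.08 at 12-16 h to 2.94 in pupal 1, and Cpr47Ea reached 3.62 in pupal 2 (adjusted p = 0.0798 and 0.0685 in the F-test). In all, 13 probes were higher at no stage, 23 at 1 stage, 19 at 2, 12 at 3, 8 at 4, 5 at 5, 5 at 6 and 2 at 7. Neither this tally nor the number called without passing the F-test was counted over all probes. They are therefore not read as traits of the family.

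Other genes of cuticle formation, in lists of named genes, were counted on the same scale. Of all probes 21.0% passed the F-test, and the F-test counts of the lists are to be read against that share. The shares of all probes called higher and lower were 1.49% and 5.94% at 4-8 h, 16.8% and 12.5% at 12-16 h, 8.76% and 14.7% in larvae, 7.58% and 16.2% in pupal 1, 9.30% and 16.0% in pupal 2, 9.53% and 19.5% in pupal 3 and 15.2% and 19.2% in young adults, and a list's counts in centred values are to be read against these. Counts without centring are to be read against those of all 23808 probes without centring. These were 165 higher and 33 lower at 4-8 h, 647 and 13871 at 12-16 h, 208 and 7519 in larvae and 164 and 8211 in pupal 1. Later they were 264 and 16339 in pupal 2, 409 and 3858 in pupal 3 and 1288 and 4416 in young adults. Other chitin-binding cuticle proteins (Lcp, Pcp and Edg genes, 14 probes, 10 of them past the F-test) had 7 probes higher and 0 lower at 4-8 h (also without centring), 9 and 1 at 12-16 h (5 and 3 without centring), 9 and 0 in larvae (7 and 0) and 3 and 0 in pupal 2 (0 and 6). Their median coefficient was 2.28 at 4-8 h and 0.40 in pupal 2. Lcp65Ag1, a larval cuticle protein, held both of the widest ranges of the list (probe 29410 was at 3.51 at 4-8 h, 6.63 at 12-16 h, -0.10 in pupal 2 and lowest in pupal 3 at -0.88).

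Tweedle genes, another cuticle protein family (26 probes, 17 past the F-test), had 18 higher and 1 lower at 12-16 h (10 and 6 without centring), where 16.8% and 12.5% of all probes were. In pupal 2 they had 4 and 3, near the shares of all probes (9.30% and 16.0%). Without centring they had 2 and 18 there, where 264 and 16339 of all 23808 probes were. Their widest ranges were those of TwdlD (6.48 at 12-16 h, -1.74 in pupal 2 and lowest in young adults at -2.49) and TwdlN (6.77 at 12-16 h and lowest in pupal 2 at -1.05). Osiris genes (24 probes, 16 past the F-test) had 14 higher and 1 lower at 12-16 h (10 and 5 without centring) and 10 and 1 in pupal 2 (2 and 7). The widest of these were Osi6 (5.74 at 12-16 h, -0.63 in pupal 2 and lowest in young adults at -1.94) and Osi14 (6.20, 0.56 and -0.70 at the same stages).

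Genes of chitin formation and turnover (36 probes, 28 past the F-test) had 24 higher and 2 lower at 12-16 h (15 and 8 without centring), 17 and 2 in pupal 1 (6 and 7) and 20 and 1 in pupal 2 (6 and 9), with median coefficients of 2.53, 1.31 and 1.47. Cht10, a chitinase gene, held both of the widest ranges and was highest in pupal 1 (4.86 and 4.26).

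Tanning genes (23 probes, 12 past the F-test), many of whose products harden and colour the cuticle, had 12 higher and 0 lower at 12-16 h (2 and 4 without centring), 13 and 0 in pupal 2 (4 and 7), 11 and 0 in pupal 3 (4 and 0) and 11 and 0 in young adults (8 and 1). Of these, ple, which encodes tyrosine hydroxylase, was highest in young adults (6.71), and amd at 12-16 h (4.73). Ecdysone response genes and cuticle regulators (21 probes, 7 past the F-test) had 3 higher and 1 lower at 12-16 h (0 and 14 without centring), near or below the shares of all probes (16.8% and 12.5%). None was called higher at a later stage, and 7 were lower in larvae, 2 in pupal 1, 3 in pupal 2, 8 in pupal 3 and 14 in young adults, where 14.7% to 19.5% of all probes were lower. Without centring 16 were lower in larvae, 8 in pupal 1, 19 in pupal 2, 4 in pupal 3 and 13 in young adults. Of all 23808 probes 7519, 8211, 16339, 3858 and 4416 were lower at these stages without centring. The widest ranges of this list were those of Hr3, a nuclear receptor gene of the ecdysone response (2.35 at 12-16 h and -0.86 in pupal 1), which did not pass the F-test (adjusted p = 0.148), and vvl (2.37 at 12-16 h and -0.49 in pupal 3).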

How the data were processed

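RNA of 8 stages was hybridized against 0-4 h embryo RNA on two-colour arrays, scanned and quantified with GenePix, and hybridizations were kept by the spread of the duplicate spots, per the labels. The authors deposited log2 ratios of Cy5 over Cy3; no background correction or normalization is given in the sources used here. The log2 scale was read from the deposited values, which are whole multiples of 0.001 after raising 2 to the value (within 0.01 of a step, median 99.99% of values per array). The 633 values at the limits 0.001 and 100000 were set missing, none of them in a cuticle probe. The intensity column of pupal 1 array c (log2 of whole numbers from 200 to 29365), as deposited, holds no ratios and was not used. Arrays were centred on their median (deposited medians -1.89 to 2.38), values of Cy3-stage arrays changed sign, and the 2 spots of each probe, 1984 positions apart, were averaged (median difference 0.52 in cuticle probes and 0.56 in all).

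Stage coefficients and a dye term were fitted with limma 3.58.1 (R 4.3.3; lmFit and eBayes, two-sided, 14 residual and 5.71 prior degrees of freedom) over all 23808 probes. Tested were each stage against the reference, 7 successive stages, pupal 2 against 12-16 h and an F-test over stages, with Benjamini-Hochberg adjustment over all probes at 0.05. The comparisons against 0-4 h embryos share that reference RNA, whose own spread is not in the test. The fit was tested on simulated data. Tables and plots were made with pandas 2.3.3 and matplotlib 3.10.9.

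The members and all lists were chosen with earlier results of these data known. Genes were named by rule: per comparison the 5 highest and 3 lowest called probes of 1 sign on all arrays (between stages, without overlap), the widest range per cytological region, all Ccp84A, Vajk and Acp65Aa probes, the 10 widest ranges, genes with several probes, and, of related lists, the 2 widest ranges. Further genes (neighbours of these, all members of short lists of calls) were named after their values were seen. Protein and promoter sequences were not used here. The number of arrays limits the precision. Alternatives tried were no centring, quantile normalization, no dye term, a replicate block, probes with close duplicates only, averaged arrays, the arrays of narrow spread as a block or left out, and each array left out in turn.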

Additional observations from a re-analysis of the deposited data

Results flagged for a closer look

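For 7 cuticle probes 1 stage was called higher and another called lower than the 0-4 h embryo reference, with every array of each on its side of 0; probes with a call in only 1 direction are not counted here. The difference was not tested between these stages, which were paired after the values were seen. The widest of these 7 was that of Cpr78Cb, by 5.46 log2 units in 12-16 h embryos minus pupal 1 (3.50 ± 0.46 and -1.96 ± 0.58), where pupal 1 rests on arrays at -3.31 and -0.51. Cpr30F differed by 4.35 in pupal 2 minus young adults (3.40 ± 0.35 and -0.95 ± 0.35), and Cpr49Ac by 3.47 in larvae minus pupal 3 (1.79 ± 0.46 and -1.68 ± 0.46). Smaller differences were 2.77 for Cpr62Ba in larvae minus pupal 2, 2.53 for Cpr92F in pupal 2 minus larvae, 2.19 for Cpr65Az in pupal 2 minus young adults and 2.17 for Cpr66D probe 25446 in pupal 2 minus young adults. Values of Cpr92F and Cpr66D probe 25446 in pupal 2 changed sign without centring. Without 1 array of the stage the calls of Cpr78Cb in pupal 1 (adjusted p = 0.697 without array a), Cpr62Ba in pupal 2, Cpr92F in larvae and in pupal 2, and Cpr30F, Cpr65Az and Cpr66D probe 25446 in young adults were lost.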

How the results depend on the processing

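Of 199 values named by rule, none changed sign after quantile normalization (17 lost their call), without the dye term (15), with the 4 arrays of narrow spread as a block (9) or left out, an alternative added after the data were seen (34), or with arrays a and b of pupal 2 and 3 averaged (32); 81 lost the call without 1 array of their comparison. Without centring 81 lost their call and 11 changed sign: in pupal 2 Cpr50Ca probes 8649 (-0.47) and 24521 (-0.33), Cpr62Bc (-0.040), Cpr73D (-0.55), Cpr92F (-0.24) and Cpr66D probe 25446 (-0.72), and at 12-16 h Cpr92A (-0.039), Cpr97Eb (-0.21), Ccp84Ab (-0.25), Cpr5C probe 44725 (-0.068) and Cpr66D probe 25446 (-0.82). The cause was not tested; each array's own centre moves all of its values by construction.

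Calls over all probes also moved with the processing. At 4-8 h, for example, 355 were higher and 1414 lower in the main fit, against 1820 and 2697 after quantile normalization. Counts of called cuticle probes moved by over 1.5 times as follows. Without centring they were 1 at 8-12 h, 13 in larvae, 18 in pupal 3, 14 in young adults, 8 for 12-16 h against 8-12 h, 9 for larvae against 12-16 h, 2 for pupal 1 against larvae, 0 for each of pupal 2 against pupal 1, pupal 3 against pupal 2 and young adults against pupal 3, and 16 for pupal 2 against 12-16 h. Of all probes, 3 were then higher and 11 lower in pupal 2 against pupal 1. For pupal 3 against pupal 2 these were 7 and 0, and for young adults against pupal 3 12 and 0. After quantile normalization the cuticle counts were 23 at 4-8 h, 8 at 8-12 h, 12 for 12-16 h against 8-12 h, 16 for larvae against 12-16 h and 3 for pupal 3 against pupal 2. Of all probes, 1848 were then higher and 2693 lower at 8-12 h, and 14 and 64 for pupal 3 against pupal 2. Without the dye term the cuticle counts were 1 at 8-12 h, 5 for pupal 2 against pupal 1 and 2 for pupal 3 against pupal 2. In the same order 668 of all probes were higher and 704 lower, 51 and 27, and 4 and 28. With close duplicates only the cuticle counts were out of 42 probes and not 87, so they are no loss of calls by themselves. They were 36 in the F-test, 10 at 4-8 h, 27 at 12-16 h, 15 in larvae, 9 for pupal 3 against pupal 2 and 16 for pupal 2 against 12-16 h. Of the 10328 probes in that fit 4637 passed the F-test, against 5011 of 23808 in the main fit. Higher and lower were 2775 and 2173 of the 10328 at 12-16 h and 1220 and 3381 in larvae. For pupal 3 against pupal 2 they were 11 and 116, and for pupal 2 against 12-16 h 234 and 1401. With the narrow arrays as a block the cuticle counts were 2 at 4-8 h and 6 for pupal 1 against larvae. Of all probes, 221 were then higher and 811 lower at 4-8 h, and 48 and 73 for pupal 1 against larvae. With those arrays left out (4-8 h, left with 1 array, is not counted) the cuticle counts were 1 at 8-12 h, 20 in larvae, 18 for larvae against 12-16 h, 6 for pupal 1 against larvae, 3 for pupal 2 against pupal 1, 2 for pupal 3 against pupal 2 and 2 for young adults against pupal 3. In the same order 601 of all probes were higher and 650 lower, 1979 and 2918, and 435 and 834. The later comparisons had 34 and 47, 36 and 20, 4 and 31, and 149 and 11. With averaged arrays the cuticle counts were 1 for pupal 2 against pupal 1, 0 for pupal 3 against pupal 2 and 1 for young adults against pupal 3. Calls over all probes were also fewer. In the same order 11 were higher and 10 lower, 0 and 1, and 54 and 3. In the main fit they were 107 and 45, 7 and 74, and 261 and 21.

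With each array left out in turn the counts ranged from 1 to 3 at 4-8 h, 0 to 1 at 8-12 h, 38 to 42 at 12-16 h, 19 to 25 in larvae, 19 to 21 in pupal 1, 38 to 44 in pupal 2, 21 to 26 in pupal 3, 19 to 24 in young adults and 50 to 59 in the F-test. Between stages they ranged from 16 to 28 for 12-16 h against 8-12 h, 19 to 32 for larvae against 12-16 h, 5 to 11 for pupal 1 against larvae, 1 to 9 for pupal 2 against pupal 1, 0 to 3 for pupal 3 against pupal 2, 2 to 5 for young adults against pupal 3 and 23 to 31 for pupal 2 against 12-16 h. Calls over all probes were not counted with 1 array left out, so whether these ranges are particular to cuticle probes was not tested. Whether arrays of the same letter share animals is not stated by the labels. Deviations of same-letter arrays from their stage means had a median correlation of -0.03 over 77 pairs, from -0.62 to 0.48. For other letters it was 0.01 over 154 pairs, from -0.57 to 0.58. Dye was not taken out of these deviations, so they cannot decide whether letters mark pairs. With the letter as a replicate block the cuticle counts were 1 at 8-12 h, 41 at 12-16 h, 43 in pupal 2 and 58 in the F-test, and 23 of the 199 values lost their call. Of all probes, 501 were then higher and 1019 lower at 8-12 h, 3216 and 2542 at 12-16 h, and 1716 and 3422 in pupal 2. The F-test was passed by 4908.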
